A study of Sus scrofa with 15 samples.

Results

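The lymphatic endothelial markers described here are 7 genes chosen by name, PROX1, LYVE1, FLT4, PDPN, MMRN1, RELN and CCL21, out of 26654 genes in the deposited tables. They and the gene lists set beside them were chosen with earlier results of these data known. Shares and medians over all genes given beside them thus serve as description and are no independent test. All 7 have a row in the count table and in the TPM table, and all 7 passed the filter on low counts in every fit. The tissue was corpus cavernosum, erectile tissue built of blood-filled sinusoids lined by endothelium, from the pig (Sus scrofa). It was sequenced as 15 RNA libraries, 3 for each of 5 labels, of which the first 3 (normal, defect and implantation A) were compared in pairs, and ECs+ implantation was compared with implantation B. The labels give all groups as the same tissue and species, with no strain, sex, age, time or agent, and they spell out neither ECs nor what was implanted in A and B. Whether the 3 libraries under a label came from different pigs is not stated either, so p-values measure only how these libraries vary, possibly for technical reasons.

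Lymphatic vessels are thin-walled tubes that drain fluid and immune cells from tissue, and their endothelium arises in part from venous endothelium that switches on the transcription factor PROX1. Growth of these vessels is driven mainly by the ligands VEGFC and VEGFD acting on the receptor FLT4, also called VEGFR3, while LYVE1 and PDPN are surface proteins used to recognise the cells. CCL21 is a chemokine that draws dendritic cells and T cells carrying the receptor CCR7 into lymphatic vessels and lymphoid tissue. Each of the 7 genes is also made elsewhere. PDPN is made by activated fibroblasts, lymph node stroma and basal keratinocytes, CCL21 by reticular stroma of lymphoid tissue, LYVE1 by some tissue macrophages, MMRN1 by megakaryocytes, platelets and blood endothelium, RELN by neurons, FLT4 by some fenestrated blood endothelium, and PROX1 by several parenchymal cells.

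Total counts ran from 17234169 to 19644793 in 13 libraries, and were 207769 in defect 1 and 250178 in defect 2. A floor of 3 counts stood at 14.4 CPM, counts scaled to a common library size, in defect 1 and 12 CPM in defect 2, against 0.153 to 0.174 CPM in the other 13 libraries. Levels are CPM scaled by TMM factors over all 15 libraries unless named otherwise, and the intervals and floors cover counting error only. Blood and general endothelial markers were present in every group, with a summed level, without TMM factors, between 1945 and 5387 CPM over the 15 libraries. The epithelial keratin KRT5, singled out after its values were seen, stood at 650 ± 31.7 CPM in normal and 1646 ± 24.3 CPM in implantation B, but at 0.0733 ± 0.127 CPM, 4 counts in all, in ECs+ implantation (SD, n = 3). Libraries of 1 group differed beyond sampling noise in all 15 pairs (chi-square per degree of freedom 1.25 to 5.83), so none was treated as deposited more than once. A label line of the 3 ECs+ implantation samples names a normal sample instead, and their group rests on titles and column names.

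Per transcript length CCL21 was the most abundant of the 7 genes in every group except normal, where PDPN was slightly higher. This ranking rests on the lengths used for the deposited TPM, which are not given. In CPM of pooled group counts, PDPN and CCL21 stood at 136 and 117 in defect and 57.6 and 57.7 in implantation B. They stood at 34.2 and 45.9 in implantation A, 25.5 and 7.7 in ECs+ implantation, and 15 and 1.07 in normal. LYVE1 was the least abundant in normal, implantation A and implantation B, RELN in ECs+ implantation and PROX1 in defect. In the deposited TPM values, which correct for length, CCL21 stood at 1135 ± 231 TPM in defect, 553 ± 24.1 TPM in implantation B, 496 ± 15 TPM in implantation A, 69.2 ± 8.46 TPM in ECs+ implantation and 10.3 ± 1.4 TPM in normal (SD, n = 3). In bulk tissue, here and below, fewer cells of a type and less RNA per cell cannot be told apart. PDPN, the next most abundant outside normal, stood at 103 ± 15.4 TPM in defect and 11.5 ± 0.0749 TPM in normal. In normal tissue PDPN and CCL21 were therefore close to each other per length, and CCL21 made up 26.5% to 33.1% of the summed TPM of the 7 genes in its libraries. That share was 85.7% to 90.1% in defect, 90% to 90.9% in implantation A, 86.7% to 88.6% in implantation B and 70.5% to 73.5% in ECs+ implantation. FLT4 fell between, at 7.08 ± 0.396 TPM in normal and 15.2 ± 3.15 TPM in defect. PROX1, the defining transcription factor, was low everywhere, between group means of 1.46 TPM in defect and 3.55 TPM in implantation B, and PROX1 of defect 2 is listed at 0.

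**Figure D1:**
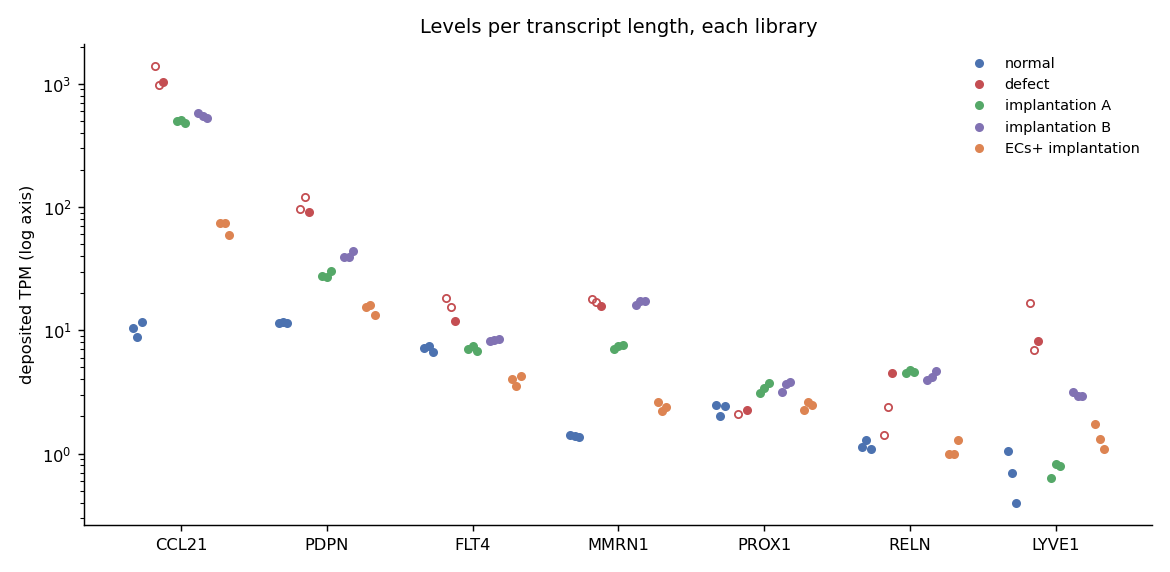
Deposited TPM of the 7 genes (log axis) in each of the 15 libraries, coloured by group, with defect 1 and defect 2 as open circles; PROX1 of defect 2, listed at 0, is not drawn. CCL21 spans from 8.83 TPM in a normal library to 1400 TPM in defect 1, while PROX1 stays between 2.02 and 3.79 TPM in the libraries drawn.

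PROX1, the homeobox transcription factor that sets and keeps lymphatic endothelial identity, lies on chromosome 9 (129527704 to 129583693, Sscrofa11.1 as for all coordinates here). Its level was 8.28, 9 and 11.13 CPM in normal 1, 2 and 3, and 13.7, 14.4 and 14.4 CPM in the 3 implantation A libraries. In implantation B it was 13.8, 13.6 and 16.1 CPM, and in ECs+ implantation 13.7, 15.8 and 15 CPM. Defect 3 had 11.11 CPM from 166 counts, whereas defect 1 had 2 counts and defect 2 had 0. In TMM-scaled CPM all 9 implanted libraries thus lay above all 3 normal ones, by a small margin. The deep defect library lay within the normal range. In TPM, ECs+ implantation 1 and 3 (2.27 and 2.45 TPM) lay below normal 1 (2.50 TPM), so this separation rests on the scaling. The share of all genes separated in this way was not counted. PROX1 rose in implantation A over normal by 0.58 ± 0.12 on the log2 scale (SE, adjusted p = 1.02e-05), and did not pass in defect over normal (0.19 ± 0.18 SE, adjusted p = 0.354), where its sign changed with the scaling. This rise was lost with DESeq2 (0.52, adjusted p = 0.12) and with TPM plus 1 (0.41, adjusted p = 0.628). For ECs+ implantation over implantation B the log2 fold change was 0.00 by TMM (adjusted p = 0.989), -0.40 with TPM plus 1 (adjusted p = 0.0032 over the 6 libraries and 0.407 over all 15) and 0.24 with library size as the only scaling (adjusted p = 0.0266), so its direction rests on the scaling. In a fit of all 15 libraries the 3 implanted groups differed from each other by 0.03 to 0.07 on the log2 scale without passing (adjusted p from 0.568 to 0.809). RefSeq lists 14 transcripts of PROX1 and 1 gene of 706 counts that overlaps it, so its counts can include or lose reads of the overlap.

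FLT4, the receptor tyrosine kinase for VEGFC and VEGFD, lies on chromosome 2 (78076008 to 78115137). It stood at 24.5, 25.6 and 22.8 CPM in normal, at 22.5, 23.6 and 21.8 CPM in implantation A, and at 60.8, 52 and 47.8 CPM in defect. In implantation B it was 30.5, 31 and 32 CPM, and in ECs+ implantation 18.6, 16.3 and 19.5 CPM. Every defect library was above every other library, and every ECs+ implantation library below every other. How many of all genes did so was not counted. FLT4 in defect stood 1.99-fold above normal (log2 fold change 0.99 ± 0.11 SE, adjusted p = 9.67e-14) and 2.15-fold lower in implantation A than in defect (-1.10 ± 0.11 SE, adjusted p = 4.05e-15). Implantation A and normal did not differ beyond their spread (-0.11 ± 0.083 SE, adjusted p = 0.26). ECs+ implantation was 1.76-fold lower than implantation B (-0.82 ± 0.078 SE, adjusted p = 1.79e-13).

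LYVE1, a hyaluronan receptor on lymphatic endothelium and some macrophages, lies on chromosome 2 (48937357 to 48954206). It was low, at 0.734, 0.572 and 0.515 CPM in normal, from 10 to 14 counts, and at 0.774, 0.85 and 0.967 CPM in implantation A. Defect libraries had 9.35, 8.01 and 12 CPM, of which the first 2 rest on 2 counts each. Implantation B had 3.98, 3.85 and 4.17 CPM and ECs+ implantation 3.01, 2.25 and 1.88 CPM. No 2 groups overlapped in CPM, although normal and implantation A were close. In TPM normal 1 (1.05 TPM) lay above the implantation A libraries (0.635, 0.819 and 0.791 TPM). How many of all genes show no overlap between any groups was not counted. LYVE1 in defect stood 19-fold above normal (log2 fold change 4.25 ± 0.27 SE, adjusted p = 4.43e-25) and 13.5-fold lower in implantation A than in defect (-3.75 ± 0.26 SE, adjusted p = 6.47e-23). With TPM plus 1, which compresses low levels, these changes were 2.68 (adjusted p = 4.02e-04) and -2.64 (adjusted p = 0.00102). Implantation A over normal did not pass (0.50 ± 0.33 SE, adjusted p = 0.178). ECs+ implantation was 1.72-fold lower than implantation B (-0.79 ± 0.21 SE, adjusted p = 6.81e-04).

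PDPN, podoplanin, a mucin-type membrane glycoprotein that binds the platelet receptor CLEC1B, lies on chromosome 6 (73019063 to 73050000). It stood at 14.9, 15.1 and 14.9 CPM in normal and at 122, 152 and 136 CPM in defect. The implanted groups lay between, at 33.4, 32.6 and 36.6 CPM in implantation A, at 55.7, 55.2 and 61.7 CPM in implantation B, and at 26.6, 27.5 and 22.7 CPM in ECs+ implantation. No 2 groups overlapped, and all 10 pairs of groups passed in the fit of 15 libraries. Single pairs passed in 29.5% to 73.8% of all genes. The share of all genes with all 10 pairs passing, or with no overlap between any groups, was not counted. PDPN in defect stood 9.11-fold above normal (log2 fold change 3.19 ± 0.092 SE, adjusted p = 6.35e-49), 4-fold lower in implantation A than in defect (-2.0 ± 0.086 SE, adjusted p = 7.33e-36), and still 2.28-fold above normal there (1.19 ± 0.082 SE, adjusted p = 3.95e-23). ECs+ implantation was 2.31-fold lower than implantation B (-1.21 ± 0.066 SE, adjusted p = 1.01e-21).

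MMRN1, multimerin 1, a large secreted protein stored by platelets and endothelium, lies on chromosome 8 (129113951 to 129173413). Its level was 3.41, 3.33 and 3.3 CPM in normal, 42.1, 40 and 44.5 CPM in defect, and 16.1, 16.7 and 17.4 CPM in implantation A. Implantation B reached 42.4, 45.3 and 45.3 CPM, overlapping defect, and ECs+ implantation 8.59, 7.14 and 7.68 CPM. MMRN1 in defect stood 13.2-fold above normal (log2 fold change 3.72 ± 0.14 SE, adjusted p = 3.64e-40) and 4.98-fold higher in implantation A than in normal (2.31 ± 0.13 SE, adjusted p = 2.23e-29). Implantation A was 2.65-fold lower than defect (-1.41 ± 0.12 SE, adjusted p = 4.69e-18). ECs+ implantation was 5.81-fold lower than implantation B (-2.54 ± 0.084 SE, adjusted p = 1.33e-31). Defect and implantation B, neighbours in the order, did not differ beyond their spread in the fit of 15 (0.00 ± 0.10 SE, adjusted p = 0.989). With TPM plus 1 the defect over normal change was 2.91.

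RELN, reelin, a secreted matrix glycoprotein that acts through the receptors VLDLR and LRP8 and the adaptor DAB1, lies on chromosome 9 (103460855 to 103963728). It stood at 7.7, 8.69 and 7.42 CPM in normal, at 28.9, 30 and 29.3 CPM in implantation A, and at 29.5, 30.7 and 34.4 CPM in implantation B. ECs+ implantation had 9.14, 9.01 and 11.6 CPM, a little above normal in CPM, though not in TPM (1.09 ± 0.167 and 1.17 ± 0.0981 TPM, SD, n = 3). The defect libraries spread widely: defect 3 had 35.7 CPM from 533 counts, while defect 1 had 9.35 CPM and defect 2 had 16 CPM, from 2 and 4 counts. Without TMM factors the pooled shallow libraries stood at 13.1 CPM with an exact 95% Poisson interval from 4.81 to 28.5. Defect 3 at 30.1 CPM lay outside that interval, though its own interval, from 27.6 to 32.8, overlapped it. The other 6 genes of defect 3 lay inside theirs, and each gene was checked without correction for the others. Whether the defect libraries differ in RELN beyond counting error is thus not settled. RELN was 3.69-fold higher in implantation A than in normal (log2 fold change 1.88 ± 0.10 SE, adjusted p = 2.01e-29) and 3.25-fold lower in ECs+ implantation than in implantation B (-1.70 ± 0.092 SE, adjusted p = 2.92e-22). The defect over normal change of 2.10 ± 0.13 (SE, adjusted p = 1.86e-25) rests on defect 3: without it the log2 fold change was 0.70 (adjusted p = 0.504), and with TPM plus 1 it was 0.72 (adjusted p = 0.0835). Implantation A and defect did not differ beyond their spread (-0.22 ± 0.12 SE, adjusted p = 0.136). Without defect 1 and 2 that difference passed (-0.28, adjusted p = 0.0313), and without defect 3 it was 1.19 (adjusted p = 0.165). With TPM plus 1 the sign turned, to 0.66, which passed over all 15 libraries (adjusted p = 0.0345) and not over 9 (adjusted p = 0.124).

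CCL21, the chemokine ligand of CCR7, lies on chromosome 10 (32093783 to 32094482), 15884 bases from CCL19, the other CCR7 ligand. It had the widest range of the 7. Normal tissue held 1.1, 0.936 and 1.19 CPM, from 18 to 23 counts, and defect 131, 92.1 and 117 CPM. Implantation A had 46.1, 47.1 and 44.3 CPM, implantation B 60.6, 57.2 and 55.6 CPM, and ECs+ implantation 8.27, 8.19 and 6.69 CPM. No 2 groups overlapped, and all 10 pairs passed in the fit of 15 libraries, a pattern whose share over all genes was not counted. With TPM plus 1 implantation B against implantation A did not pass (0.16, adjusted p = 0.51). CCL21 in defect stood 107-fold above normal (log2 fold change 6.74 ± 0.14 SE, adjusted p = 5.71e-61) and 42.3-fold higher in implantation A than in normal (5.40 ± 0.13 SE, adjusted p = 1.59e-54). Implantation A was 2.54-fold lower than defect (-1.34 ± 0.087 SE, adjusted p = 2.91e-24). ECs+ implantation was 7.68-fold lower than implantation B (-2.94 ± 0.08 SE, adjusted p = 1.72e-35). Without defect 3, the shallow libraries alone gave 6.67 over normal (adjusted p = 3.74e-22).

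**Figure D2:**
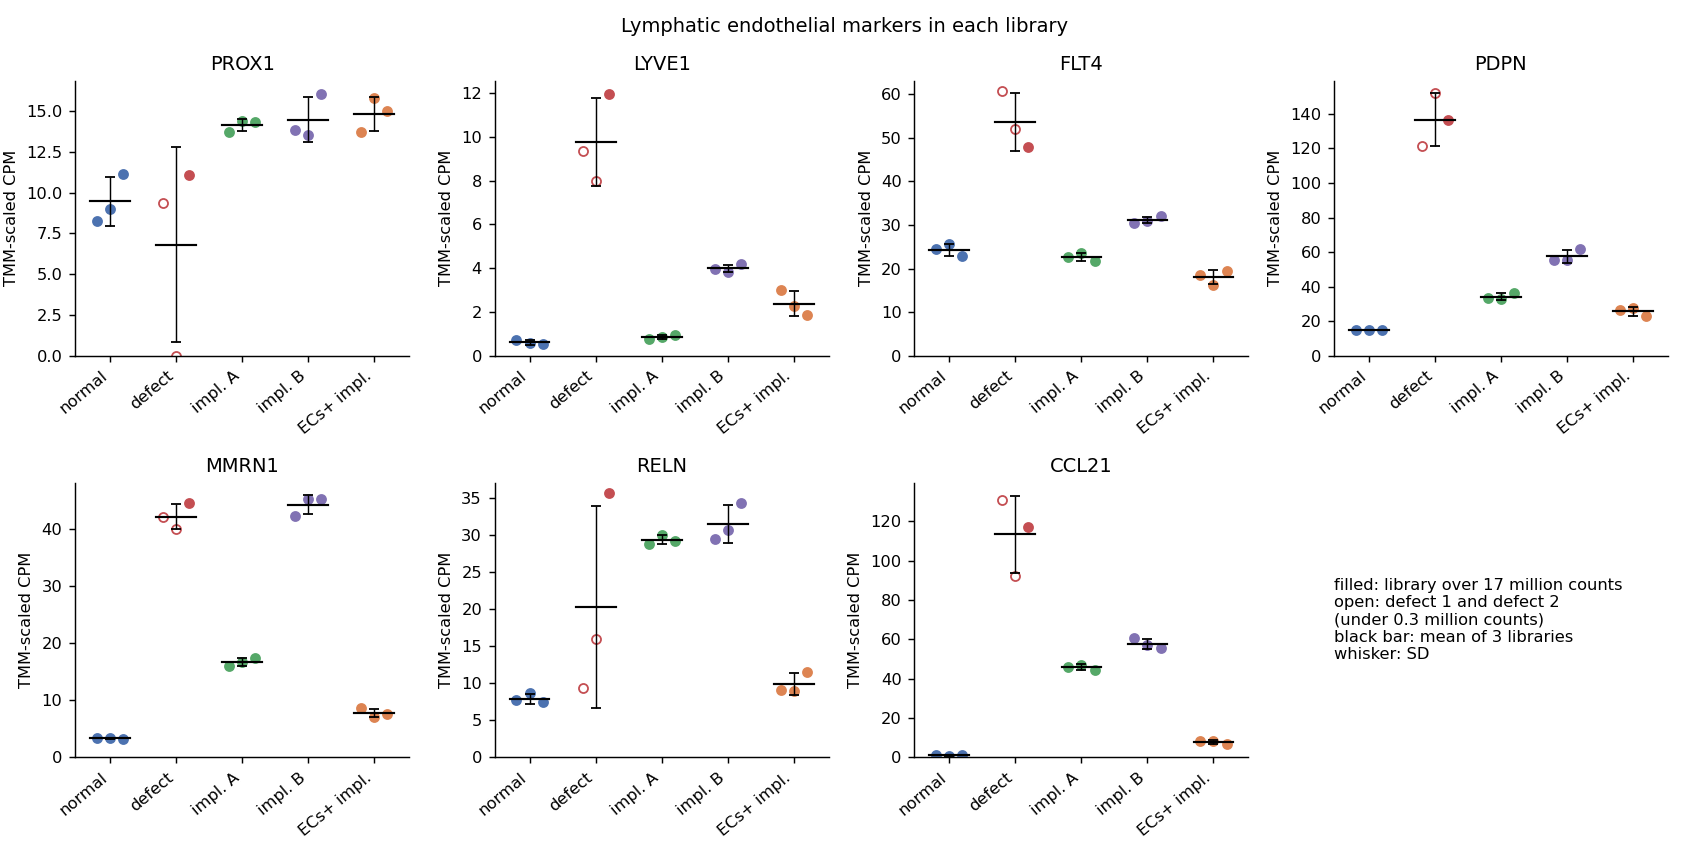
TMM-scaled CPM of each gene (linear axes from 0) in each library by group, with the mean of 3 libraries as a black bar, the SD as a whisker, and defect 1 and defect 2 as open circles. Defect stands above all other groups for CCL21, PDPN, LYVE1 and FLT4, implantation B matches it for MMRN1, and PROX1 changes little.

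Set out by comparison, 6 of the 7 genes were higher in defect than in normal and 0 lower, at an adjusted p under 0.05, where 32% of all 17855 genes tested were higher and 31.9% lower, 63.9% together. The count was 6 without defect 1 and 2 and 5 without defect 3. In the same 6 genes every defect library was above every normal one, as it was in 17% of all genes. For LYVE1 and RELN, however, defect 1 and 2 hold only 2 to 4 counts each. The median log2 fold change over the 7 was 3.19, beside -0.05 over all genes tested. With library size as the only scaling, 3456 genes were higher and 8894 lower in place of 5715 and 5692, and 6 of the 7 genes were still higher.

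In implantation A against defect, 0 of the 7 were higher and 5 lower, beside 20.4% and 21.4% of all genes (41.8% together), with a median of -1.34 beside 0.02. The 5 were CCL21, PDPN, LYVE1, MMRN1 and FLT4, and the count was 6 without defect 1 and 2, where RELN joined them. PROX1 stood at 0.39 ± 0.17 (SE, adjusted p = 0.0562). Its call turned with the setting: it passed as higher with DESeq2's size factors in edgeR (0.46, adjusted p = 0.0207), with library size alone (0.70, adjusted p = 6.49e-04) in a fit of these 2 groups (0.47, adjusted p = 0.00482), with a stricter filter (adjusted p = 0.0465) and in the fit of 15 (adjusted p = 0.0459). With the replicate number as a block it also passed (0.52, adjusted p = 0.0256). Library size alone gave 7931 higher and 1761 lower genes here in place of 3642 and 3823, and TPM plus 1 gave 4694 and 959.

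In implantation A against normal, 5 of the 7 were higher and 0 lower, beside 32.2% and 32.3% of all genes (64.5% together), with a median of 1.19 beside -0.02. LYVE1 and FLT4 did not pass. With TPM plus 1 the split of all genes was 2231 higher and 1068 lower in place of 5755 and 5767. This comparison shares its normal libraries with defect over normal and its implantation A libraries with the one before. Side by side, the log2 fold changes over normal in defect and in implantation A were 6.74 and 5.40 for CCL21, 3.72 and 2.31 for MMRN1, 3.19 and 1.19 for PDPN, 2.10 and 1.88 for RELN, 4.25 and 0.50 for LYVE1, 0.99 and -0.11 for FLT4, and 0.19 and 0.58 for PROX1.

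In ECs+ implantation against implantation B, 0 of the 7 were higher and 6 lower, beside 37.8% and 38.1% of 17204 genes tested (75.8% together), with a median of -1.21 beside 0.02. In all 6 every ECs+ implantation library was below every implantation B one, as it was in 37% of all genes. Where library size alone was the scaling, 8687 genes were higher and 4894 lower in place of 6501 and 6547, and with TPM plus 1 the split was 4347 and 8399. The 7 genes then gave 1 higher (PROX1) and 6 lower with library size, and 0 higher and 7 lower with TPM. Against normal, in the fit of 15 libraries and outside the study's own comparisons, ECs+ implantation was higher for CCL21 (2.83 ± 0.17 SE, adjusted p = 4.57e-25), LYVE1 (1.96 ± 0.28 SE, adjusted p = 3e-09), MMRN1 (1.22 ± 0.13 SE, adjusted p = 4.75e-13), PDPN (0.77 ± 0.081 SE, adjusted p = 1.41e-13), PROX1 (0.65 ± 0.11 SE, adjusted p = 4.53e-07) and RELN (0.32 ± 0.12 SE, adjusted p = 0.0123). FLT4 was lower there (-0.43 ± 0.082 SE, adjusted p = 4.18e-06), and 71.3% of all genes passed (35.7% higher and 35.6% lower). With TPM plus 1, PROX1 (adjusted p = 0.925), LYVE1 (adjusted p = 0.161) and RELN (-0.06, adjusted p = 0.88) did not pass there.

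Over the 10 pairs of groups in the fit of 15 libraries, 60 of the 70 differences passed, and 51 with TPM plus 1. All genes passed at 63.2% in defect against normal, 63.7% in implantation A against normal, 73.8% in implantation B against normal, 42.7% in implantation A against defect and 29.5% in implantation B against defect. The share was 62.3% in ECs+ implantation against defect, 50.8% in implantation B against implantation A, 70.4% in ECs+ implantation against implantation A and 73.3% against implantation B. The 10 differences that did not pass were 4 of PROX1, 3 of RELN and 1 each of LYVE1, FLT4 and MMRN1.

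**Figure D3:**
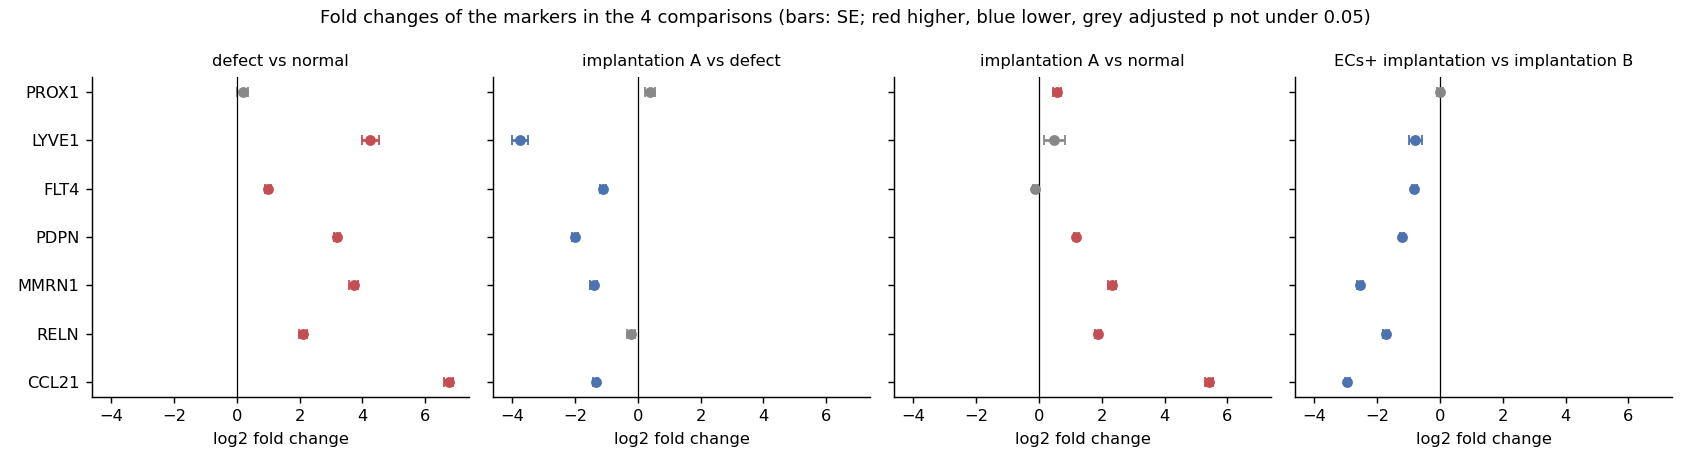
Log2 fold change of each gene with its SE (bars) in the 4 comparisons of the study; red marks higher, blue lower and grey an adjusted p of 0.05 or more. Points lie to the right in defect vs normal and, except FLT4 at -0.11, in implantation A vs normal, up to 6.74 for CCL21, and to the left in ECs+ implantation vs implantation B, down to -2.94 for CCL21, while PROX1 stays between 0.00 and 0.58 by TMM, with signs that change with the scaling in defect vs normal and ECs+ implantation vs implantation B.

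Ligands of the lymphatic growth pathway and the proteins that process them moved partly with the 7 genes. The counts of this list and of those below stand beside the shares of all genes tested. These were 32% higher and 31.9% lower in defect over normal, and 20.4% and 21.4% in implantation A over defect. In implantation A over normal they were 32.2% and 32.3%, and in ECs+ implantation over implantation B 37.8% and 38.1%. Of the 10 genes of this list in the table, 7 rose and 3 fell in defect over normal, with a median of 1.24 beside -0.05 over all genes. HGF, a growth factor that also acts on lymphatic endothelium, rose by 2.03, ADAMTS3, the protease that activates VEGFC, by 1.85, and CCBE1, its cofactor, by 1.40. VEGFC stood at 18.9 ± 9.34 CPM in defect, 11.4 ± 1.55 CPM in normal, 16.7 ± 0.83 CPM in implantation A, 14.8 ± 0.313 CPM in implantation B and 31.3 ± 0.714 CPM in ECs+ implantation (SD, n = 3). It rose in defect (0.76 ± 0.15 SE, adjusted p = 5.09e-06) and implantation A (0.55 ± 0.11 SE, adjusted p = 3.97e-06) over normal. It also rose in ECs+ implantation over implantation B (1.05 ± 0.079 SE, adjusted p = 4.43e-17), where its receptor FLT4 fell and ADAMTS3 fell by 2.13. VEGFD had 24 to 49 counts per group and rose in defect over normal (1.80 ± 0.46 SE, adjusted p = 3.87e-04). In implantation A over defect 0 of this list rose and 5 fell, in implantation A over normal 5 rose and 2 fell, and in ECs+ implantation over implantation B 4 rose and 4 fell. Without defect 3, 2 rose and 0 fell in defect over normal. Libraries of defect and normal overlapped for VEGFC, VEGFD and CCBE1, and did not for HGF and ADAMTS3.

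Receptors and transcription factors of lymphatic endothelium, most of them shared with blood endothelium, did not follow the 7 genes. Of 10 receptors and coreceptors, 3 rose and 5 fell in defect over normal (median -0.21) and 8 rose and 1 fell in ECs+ implantation over implantation B (median 0.92). TIE1, an endothelial receptor, fell by 1.58 in the former and had a log2 fold change of 1.82 in the latter. RAMP2, the partner of the adrenomedullin receptor, fell by 1.54 and rose by 1.59. The 1 receptor that fell in ECs+ implantation, named after its values were seen, was ITGA9 (-1.24), an integrin of lymphatic valves. NRP2, the coreceptor of FLT4, rose in defect over normal (0.49, adjusted p = 7.22e-08) and did not pass in ECs+ implantation over implantation B (-0.05, adjusted p = 0.18). In implantation A, 1 rose and 3 fell against defect and 2 rose and 7 fell against normal.

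Of 10 transcription factors, 2 rose and 7 fell in defect over normal (median -0.63), and 8 rose and 2 fell in ECs+ implantation over implantation B (median 1.03). SOX18 and NR2F2, which switch on PROX1 in veins, and FOXC2, which shapes valves, were among those that fell in defect over normal, with -0.62, -0.36 and -0.82 on the log2 scale, as were KLF2 (-1.26) and GATA2 (-1.40). In ECs+ implantation they were higher than in implantation B by 1.40, 1.36 and 1.41. PROX1 itself did not pass in either comparison. TBX1, also a lymphatic factor, fell by 0.64 and rose by 2.87 in those comparisons. Against normal, 2 of these factors rose and 7 fell in implantation A, and against defect 6 rose and 2 fell.

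Valve and junction genes split evenly in defect over normal, where 4 of 9 rose and 4 fell. All genes also split evenly there, with 32% higher and 31.9% lower. GJA1, a connexin that fibroblasts and smooth muscle also make, rose by 4.27, FAT4, a cadherin of lymphatic valves, by 1.01, and PIEZO1, a mechanosensitive channel, fell by 0.86. In ECs+ implantation over implantation B 1 rose and 7 fell, with GJA1 at -2.73. Implantation A had 4 higher and 1 lower against defect and 4 higher and 5 lower against normal.

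Further lymphatic endothelial markers, from a list of 12 of which 10 were tested, gave 4 higher and 5 lower in defect over normal (median -0.33). SEMA3D and SEMA3A, secreted semaphorins, rose by 3.64 and 4.84, and FXYD6, a regulator of the sodium pump, fell by 1.25. ACKR4, which scavenges CCL19 and CCL21 and was named after its values were seen, rose by 2.28 in defect over normal and by 1.64 in implantation A over normal, and had -1.60 in ECs+ implantation over implantation B. In that last comparison 3 rose and 3 fell of 9 tested, beside 37.8% and 38.1% of all genes. The decoy chemokine receptor ACKR2 stood at 1.18 and FXYD6 at 2.04. Implantation A had 4 higher and 4 lower against defect and 3 higher and 4 lower against normal. Its median of -0.33 in defect over normal stands beside 3.19 for the 7 genes and -0.05 for all genes.

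Blood and general endothelial markers, some of which lymphatic endothelium also makes, mostly fell where 6 of the 7 rose. Of 14, 1 rose and 11 fell in defect over normal (1 and 11 without defect 1 and 2), with a median of -0.84. Their summed level, without TMM factors, was 5314 ± 97.4 CPM in normal, 2783 ± 115 CPM in defect, 2918 ± 7.32 CPM in implantation A, 1948 ± 4.42 CPM in implantation B and 4679 ± 50.5 CPM in ECs+ implantation (SD, n = 3). The sum of the 7 genes on the same scale was 67.9 ± 1.85, 365 ± 27.1, 173 ± 2.39, 213 ± 5.79 and 88.1 ± 1.53 CPM in that order. It is weighted to its more abundant genes: of 341 CPM in defect 3, PDPN gave 115, CCL21 98.7 and PROX1 9.38. The groups with the lower endothelial sums, defect and implantation A and B, were those with the higher sums of the 7. In implantation A 4 rose and 6 fell against defect and 0 rose and 14 fell against normal, and in ECs+ implantation 12 rose and 2 fell against implantation B. PECAM1, found on all endothelium, stood at 671 ± 12.1 CPM in normal, 509 ± 83.9 CPM in defect and 1173 ± 17 CPM in ECs+ implantation.

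Genes of the other cells that make PDPN were set beside it. The summed level of 10 activated fibroblast markers, without TMM factors, was 13892 ± 129 CPM in normal and 106573 ± 2178 CPM in defect. It was 59176 ± 81.3 CPM in implantation A, 96071 ± 886 CPM in implantation B and 11162 ± 31 CPM in ECs+ implantation. This follows the order of PDPN except that ECs+ implantation lies below normal for the fibroblast sum. All 10 rose in defect over normal, with the smallest p for COL12A1 (4.16), TNC (3.49) and FAP (3.28), and all 10 fell in ECs+ implantation over implantation B and in implantation A over defect. Against normal all 10 rose in implantation A. Of 9 basal keratinocyte markers, 6 rose and 2 fell in defect over normal, and in ECs+ implantation over implantation B 2 rose and 7 fell. TP63, their master transcription factor, stood at 11.6 ± 0.824 CPM in normal, 54.5 ± 1.48 CPM in implantation B and 0.0888 ± 0.0588 CPM in ECs+ implantation. PDPN stood at 25.6 ± 2.53 CPM in ECs+ implantation, above normal, where KRT5 and TP63 were near 0. The 9 keratinocyte markers together, without TMM factors, still summed to 744 CPM there, beside 2177 CPM in normal. Implantation A had 3 keratinocyte markers higher and 5 lower against defect and 8 higher and 1 lower against normal. The part of fibroblasts and of keratinocytes in the PDPN levels was not tested.

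Beside CCL21 stand genes of reticular stroma, the CCR7 axis and high endothelial venules. Of 7 tested, 5 rose and 1 fell in defect over normal, with the smallest p for VCAM1 (1.70) and ICAM1 (1.48), both adhesion molecules, and CXCL13 (5.05), the chemokine of B cell follicles. CCL19 stood at 29.5 ± 1.8 CPM in normal, 51.5 ± 10 CPM in defect, 20.5 ± 0.301 CPM in implantation A, 34.9 ± 1.48 CPM in implantation B and 71.6 ± 1.64 CPM in ECs+ implantation (SD, n = 3). It moved as CCL21 did in defect over normal (0.96 ± 0.10 SE, adjusted p = 4.6e-14) and in implantation A over defect (-1.49 ± 0.10 SE, adjusted p = 1.36e-22), and the other way in the other comparisons. In implantation A over normal CCL19 fell (-0.53 ± 0.082 SE, adjusted p = 3.26e-08) where CCL21 rose by 5.40, and in ECs+ implantation over implantation B it rose (1.0 ± 0.053 SE, adjusted p = 8.51e-23) where CCL21 fell by 2.94. CXCL13 was highest in ECs+ implantation too, at 22.4 ± 1.08 CPM beside 2.18 ± 0.139 CPM in implantation B. CCR7 itself had 17 to 47 counts per group and did not pass in ECs+ implantation over implantation B (0.33, adjusted p = 0.481). The list gave 0 higher and 5 lower in implantation A over defect, 3 higher and 2 lower over normal, and 5 higher and 2 lower of 8 tested in ECs+ implantation over implantation B. The part of reticular stroma in the CCL21 levels was not tested.

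LYVE1 moved with macrophage markers in some comparisons and not in others. Of 12 markers 11 rose and 1 fell in defect over normal, 0 rose and 12 fell in implantation A over defect, and 0 rose and 12 fell in ECs+ implantation over implantation B. In defect over normal without defect 3, 4 rose and 1 fell. MRC1, the mannose receptor, stood at 11.6 ± 0.0974 CPM in normal, 56 ± 4.34 CPM in defect, 11.5 ± 0.629 CPM in implantation A, 65.4 ± 1.82 CPM in implantation B and 11.6 ± 0.457 CPM in ECs+ implantation (SD, n = 3). LYVE1 was 2.38 ± 0.576 CPM in ECs+ implantation and 0.607 ± 0.113 CPM in normal, groups with like MRC1. CD163, a scavenger receptor, was 12.9 ± 1.27 CPM in ECs+ implantation and 30.8 ± 0.369 CPM in normal. Against normal 0 of the 12 rose and 8 fell in implantation A, where LYVE1 did not pass. The summed macrophage level, without TMM factors, was 1031 ± 28.8 CPM in normal, 1121 ± 33.5 CPM in defect, 629 ± 8.53 CPM in implantation A, 1176 ± 7.21 CPM in implantation B and 643 ± 14.8 CPM in ECs+ implantation. The part of macrophages in the LYVE1 levels was not tested.

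Platelet and megakaryocyte markers were low and did not follow MMRN1. PPBP, a platelet chemokine, had 0 counts in normal, implantation A and implantation B, 2 in defect and 1 in ECs+ implantation, where MMRN1 had 193 to 2168 counts per group. Of 4 markers tested, 0 rose and 2 fell in defect over normal, and 2 rose and 1 fell in ECs+ implantation over implantation B. ITGA2B, the platelet fibrinogen receptor chain, had a log2 fold change of -1.88 in defect over normal and 1.45 in ECs+ implantation over implantation B, the opposite signs of MMRN1. In implantation A 2 rose and 0 fell against defect, and 0 rose and 4 fell against normal. CLEC1B, the receptor of podoplanin on platelets, had 0 to 5 counts per group. The part of platelets and megakaryocytes in the MMRN1 levels was not tested.

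The reelin pathway held 1 gene that kept close to RELN, with the level of RELN in defect unsettled. DAB1, the adaptor that carries the reelin signal, stood at 1.16 ± 0.425 CPM in normal, 4.81 ± 0.884 CPM in defect, 5.02 ± 0.935 CPM in implantation A, 6.62 ± 0.764 CPM in implantation B and 1.65 ± 0.282 CPM in ECs+ implantation (SD, n = 3). It rose in implantation A over normal (2.10 ± 0.22 SE, adjusted p = 2.04e-14) and fell in ECs+ implantation over implantation B (-2.03 ± 0.20 SE, adjusted p = 2.82e-13). Of the receptors, VLDLR had 0.71 and -0.45 in these comparisons and LRP8 had 0.55 and -1.91, all passing. Of the 6 genes of the list, 4 rose and 0 fell in defect over normal, 1 rose and 2 fell in implantation A over defect, 5 rose and 0 fell over normal, and 1 rose and 5 fell in ECs+ implantation over implantation B.

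The middle of each companion list, as its median log2 fold change, can be set beside -0.05 over all genes in defect over normal and 0.02 in ECs+ implantation over implantation B. Fibroblast markers had 3.21 and -1.94, macrophage markers 0.94 and -1.28, and keratinocyte markers 1.87 and -6.53. Reticular stroma and CCR7 axis genes had 1.17 and 0.67, valve and junction genes -0.17 and -0.91, and the reelin pathway 0.76 and -0.42. Blood endothelial markers had -0.84 and 1.32, and platelet markers -0.87 and 0.57. Several list counts in defect over normal rest on defect 3. Without it, 0 receptors rose and 4 fell, 1 transcription factor rose and 4 fell, and 2 valve and junction genes rose and 2 fell. Of further lymphatic markers 2 then rose and 3 fell, of reticular stroma genes 2 rose and 1 fell, and of the reelin pathway 2 rose and 1 fell. Fibroblast markers gave 9 higher and 0 lower, blood endothelial markers 0 and 10, and keratinocyte markers 6 and 3.

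**Figure D4:**
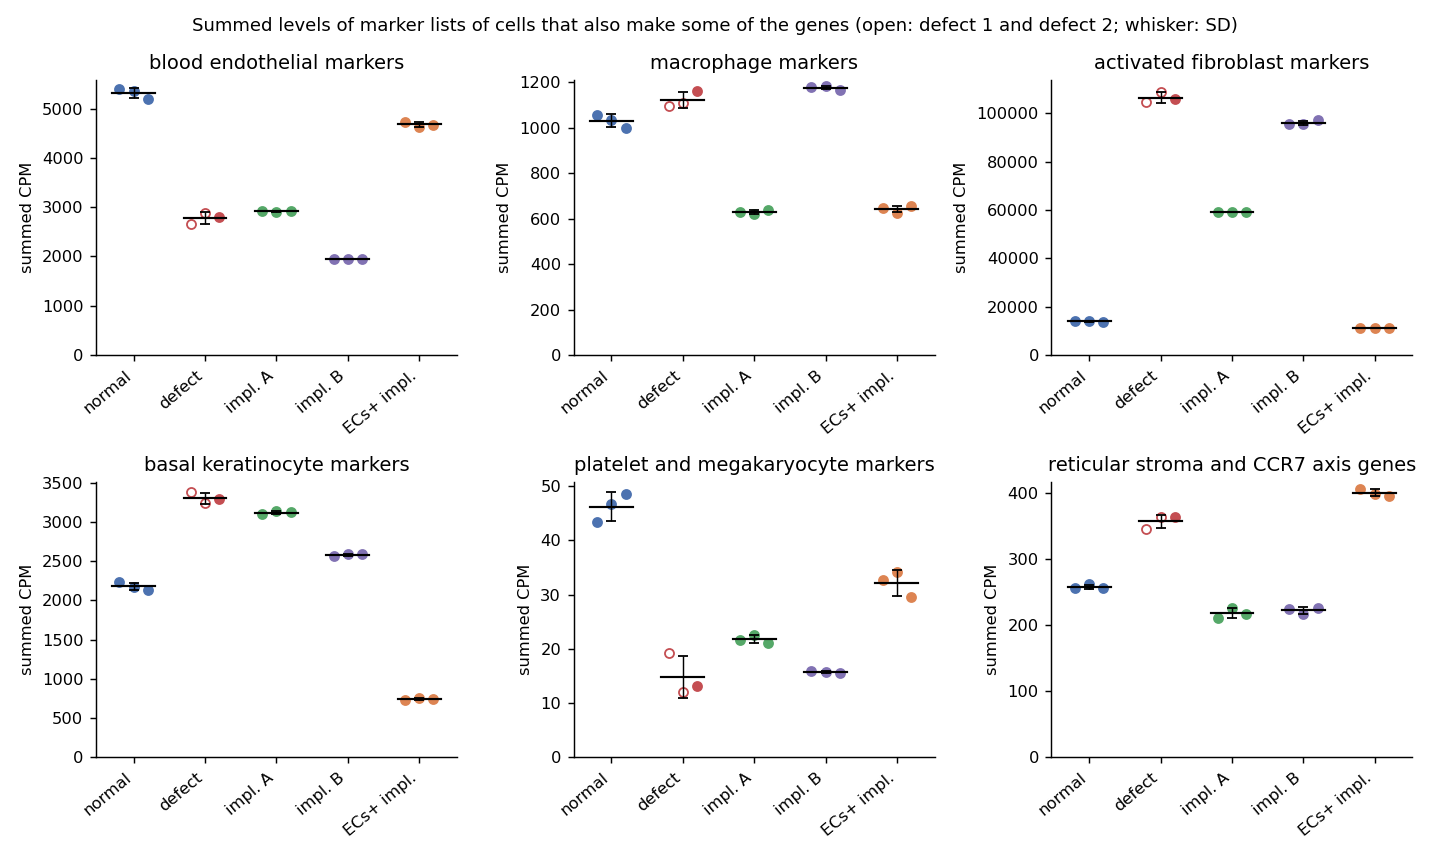
Summed CPM, without TMM factors, of 6 marker lists in each library by group, with the mean as a black bar, the SD as a whisker, and defect 1 and defect 2 as open circles. Blood endothelial sums are lowest in implantation B (1948 CPM) and highest in normal (5314 CPM), fibroblast sums are highest in defect (106573 CPM), and keratinocyte sums are lowest in ECs+ implantation (744 CPM).

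Genes most like each of the 7 were sought over the 5 groups, as the smallest root mean square difference of centred log2 levels of pooled group counts among 13701 other genes; the measure is a description over 5 points. RELN was nearest to DAB1 (0.121), followed by SHISA2 (0.121) and VWC2 (0.122). CCL21 had no close match, with ITGBL1 nearest at 0.631 and WNT2 and SFRP4 at 0.734 and 0.735. MMRN1 was nearest to COL1A2 (0.191), RASL11B (0.205) and COL14A1 (0.205), 2 of which are fibroblast collagen chains. PDPN was nearest to KCNA3 (0.139), FAT3 (0.145) and SEMA3C (0.175), and LYVE1 to MYBPH (0.0847) and FGF18 (0.186). FLT4 was nearest to ABCA1 (0.0463), IRF8 (0.0499) and DENND1C (0.0749), and PROX1 to GRAMD1C (0.0301), SH3YL1 (0.0304) and NEGR1 (0.0367). Among the 7 themselves the closest pair was LYVE1 and PDPN (0.502), with PDPN the 36th nearest gene to LYVE1. PROX1 and FLT4 were each other's nearest among the 7 (0.616), at rank 10826 for PROX1 and 7927 for FLT4.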

How the data were processed

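Polyadenylated RNA of 15 samples was made into libraries with a TruSeq kit, per the labels. Tools named, per the submitters' processing notes, are HISAT2, HTSeq, fastp and DESeq2, with the build Sscrofa11.1 and no versions, settings or roles. The authors deposited raw gene counts and TPM values. Use of strand and the making of TPM: not given in the sources used here. Columns were matched to samples by title. Gene coordinates come from a RefSeq table of the same build, in which 99.9% of the symbols were found.

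Counts were filtered by filterByExpr, scaled by TMM and tested with edgeR 4.0.16 in R 4.3.3 (glmQLFit, robust, and glmQLFTest, two-sided, Benjamini-Hochberg over all genes tested, threshold 0.05). Normal, defect and implantation A shared a fit of 9 libraries, and the other comparison a fit of 6. A fit of all 15 served the order of levels. Group fold changes weight libraries by depth, so those with defect rest mostly on defect 3. Each SE is the log2 fold change over the root of its F statistic. The 7 genes and all lists were chosen with earlier results of these data known, and list genes named are the 19 that act beside a member or those with the smallest p. Of the 16 lists, genes not in the table (such as KRT14 and PF4) are not analysed here. TPM was tested with limma 3.58.1 on log2(TPM + 1) and log2(TPM + 0.1), a scale that understates changes of low genes, and counts also with DESeq2 1.42.0. The scripts were tested on simulated counts. A gene among those most like LYVE1 is not reported here.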

Additional observations from a re-analysis of the deposited data

How the results depend on the processing

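In the alternatives run, 5 or 6 of the 7 genes were called in defect over normal and in implantation A over defect. The count was 4 or 5 in implantation A over normal and 6 or 7 in ECs+ implantation over implantation B. Every call that changed was of PROX1 or RELN. The gene-by-pair differences called in the fit of 15 were 60 of 70, 60 with a replicate block (added after seeing the data) and 51 with TPM plus 1. Of fold changes of the 7, 15 reversed, all of PROX1 or RELN and none in implantation A over normal. For PROX1 in defect over normal they were -0.042 (DESeq2), -0.19 (library size alone), -0.61 (TPM plus 1), -1.58 (TPM plus 0.1) and, leaving out 1 library, from -1.13 (without defect 3) to 0.33. For RELN in implantation A over defect they were 0.084 (DESeq2), 0.091 (library size alone), 0.66 (TPM plus 1), 0.86 (TPM plus 0.1) and, leaving out 1 library, from -0.25 to 1.19 (without defect 3). For PROX1 in ECs+ implantation over implantation B they were 0.24 (library size alone), 0.0026 (stricter filter), 0.033 (fit of 15) and, leaving out 1 library, from -0.051 to 0.075. The cause was not tested.

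DESeq2 called 7460 genes in defect over normal, 3830 in implantation A over defect and 6936 in implantation A over normal, in place of 11407, 7465 and 11522. With TPM the last was 3299 (plus 1) and 2954 (plus 0.1). Leaving out 1 library gave 3521 (without defect 3) to 11950 genes in defect over normal and 1455 (without defect 3) to 7556 in implantation A over defect. The median of all genes in defect over normal moved by -0.37 with library size alone, -0.23 with TPM plus 1, -0.47 with TPM plus 0.1 and -0.38 without defect 3. In implantation A over defect it moved by 0.31, 0.33, 0.53 and 0.37 with these, and in ECs+ implantation over implantation B it moved by 0.24, -0.19 and -0.25 with the first 3. Same-numbered libraries did not deviate together (correlations from -0.03 to 0.02), so no pairing by number was seen. In the comparisons with defect this could not show a pairing, since defect 1 and 2 are shallow and vary mostly by counting error. With the replicate block 10663, 6262, 11261 and 12957 genes were called in the 4 comparisons, and of the 7 genes PROX1 in implantation A over defect changed its call. Depth of defect 1 and 2 limits what they show for PROX1, LYVE1 and RELN, with 0 to 4 counts each.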

Other observations

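Other lists beside these genes gave the following. Of 8 T cell and dendritic cell genes tested, 7 rose and 0 fell in defect over normal, with the smallest p for CD4 (2.73), FLT3 (2.92), a receptor of dendritic cell precursors, and XCR1 (1.43). Without defect 3, 0 of them passed. In ECs+ implantation over implantation B 2 of 10 rose and 6 fell. In implantation A over defect 0 rose and 6 fell, and over normal 1 rose and 1 fell. Their summed level, without TMM factors, was 14.8 ± 0.636 CPM in ECs+ implantation and 19.7 ± 1.43 CPM in normal (SD, n = 3).

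Podoplanin partners, a list that also holds CCL21, gave 6 higher and 0 lower of 7 tested in defect over normal, with the smallest p after CCL21 for CD44 (1.32) and EZR (1.12), which links podoplanin to actin. In implantation A 0 rose and 6 fell against defect and 5 rose and 1 fell against normal. In ECs+ implantation over implantation B 3 rose and 4 fell, with CD44 at -1.89 and EZR at -1.59. Among 10 markers of nerve and Schwann cells, 5 rose and 3 fell in defect over normal, 7 rose and 0 fell in implantation A over defect, 8 rose and 1 fell over normal, and 1 rose and 7 fell in ECs+ implantation over implantation B.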
